A study of Mus musculus with 2 samples.

Results

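The genes of recruited and phagocytic macrophages Cd68, Cybb, Gpnmb, Trem2, Lyz2, Itgax, Csf1r, Clec7a and Ctss, were followed in liver tumours of mice. They were picked by symbol for their roles in phagocytosis, in the lysosome and in lipid-associated macrophages, with earlier results of the same arrays known, so that every difference between tumours given for them is a description and supports nothing further. All 9 genes were found among the 19938 genes of the platform annotation, each with 1 probe set that named no other gene, out of 35556 probe sets in all. The HLF-deficient group was 1 sample of hepatocellular carcinoma tissue from a mouse deficient in hepatic leukemia factor (HLF), a PAR bZIP transcription factor of liver, and the WT group was 1 such sample from a wild-type mouse. Both mice had received DEN (diethylnitrosamine, a chemical that causes liver tumours), and total RNA of each tumour was hybridised to 1 array. Strain, age, the time after DEN, the allele that removes HLF and the cell types it is removed from are not given in the sources used here.

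Levels are RMA values on a log2 scale, and each difference is HLF-deficient minus WT, so that a difference of 1 is 2-fold. With 1 array per genotype there is no measure of the spread between tumours, and genotype, mouse, tumour and array cannot be told apart. In bulk tissue, fewer cells of a type and less RNA per cell cannot be told apart either. A floor of expression was set at 2.98, the 95th percentile of 1243 probe sets of odour, pheromone and taste receptor genes, and the 14575 genes at or above it on at least 1 array were compared. Hlf itself had a level of 3.79 in the HLF-deficient tumour and 5.13 in the WT tumour, a difference of -1.34, which goes with the labels. All 8 hepatocyte markers were above the floor on both arrays, with differences from -0.15 for Alb to 0.32 for Tat and a summed level of 25585 on the linear scale in the HLF-deficient tumour and 25507 in the WT tumour. The median difference of all genes compared was 0.07. Centring each array on the median of its probe sets would add 0.12 to every difference, so small differences depend on the scaling.

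Macrophages of the liver comprise resident Kupffer cells, which line the sinusoids, and cells derived from blood monocytes that enter the tissue after injury and in tumours. Both take up particles and dying cells through surface receptors, kill or digest the cargo with reactive oxygen and lysosomal enzymes, and depend on signals through the CSF1 receptor. Macrophages loaded with lipid in liver and fat tissue are known for high Trem2, Gpnmb, Cd9 and Lgals3.

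The stretches around the transcription start of the members were searched for short words that factors of interest are known to bind. The words were GAGGAAGT for PU.1, the master factor of myeloid cells, TTACGTAA for PAR bZIP factors such as HLF, CACGTG for MITF and TFEB, regulators of lysosomal genes, and TGACTCA for AP-1. Windows ran from 250 bases before to 50 bases after the start on RefSeq's GRCm38.p6 and both strands were read; all 9 members but Csf1r were looked up, and the matches found did not overlap each other. Shown here are the 250 bases before the start of the members with the largest differences and of Itgax, 5′ to 3′ on the gene's strand, with matches in capitals (TGAGTCA is the AP-1 word read on the opposite strand).
Cybb (chrX:9469325-9469574, minus strand): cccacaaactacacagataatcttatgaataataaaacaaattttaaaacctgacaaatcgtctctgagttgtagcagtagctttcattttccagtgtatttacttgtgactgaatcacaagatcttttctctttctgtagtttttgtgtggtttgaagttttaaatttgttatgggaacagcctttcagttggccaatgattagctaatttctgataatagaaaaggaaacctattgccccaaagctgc
Gpnmb (chr6:49036268-49036517, plus strand): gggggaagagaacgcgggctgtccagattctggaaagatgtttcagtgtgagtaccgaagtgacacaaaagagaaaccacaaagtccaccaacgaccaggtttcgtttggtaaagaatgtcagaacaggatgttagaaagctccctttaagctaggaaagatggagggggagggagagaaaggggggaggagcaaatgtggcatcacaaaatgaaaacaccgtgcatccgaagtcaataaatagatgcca
Cd68 (chr11:69666171-69666420, minus strand): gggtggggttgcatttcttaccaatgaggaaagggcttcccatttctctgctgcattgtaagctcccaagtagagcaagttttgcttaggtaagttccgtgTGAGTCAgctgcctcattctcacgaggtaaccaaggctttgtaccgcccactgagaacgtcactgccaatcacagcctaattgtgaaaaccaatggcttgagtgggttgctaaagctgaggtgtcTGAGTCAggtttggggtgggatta
Itgax (chr7:128129300-128129549, plus strand): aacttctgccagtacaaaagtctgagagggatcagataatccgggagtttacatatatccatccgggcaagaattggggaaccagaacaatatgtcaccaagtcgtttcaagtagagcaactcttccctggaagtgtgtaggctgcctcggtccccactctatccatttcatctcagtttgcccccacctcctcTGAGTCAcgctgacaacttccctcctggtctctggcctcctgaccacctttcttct

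The AP-1 word occurred in the windows of 3 of the 8 members, Cd68, Gpnmb and Itgax, and in 5.20% of all 32851 windows. Members are counted here as genes, and a gene can have more than 1 window, as Clec7a does. The shares of windows are therefore not shares of genes. Cd68 held it at 2 places, beginning at positions -149 and -24 relative to the start, Itgax held it at position -56, and in Gpnmb it began at position 9 after the start, outside the stretch printed above. Of these 3, Cd68 was 2.88-fold higher, Gpnmb at least 1.63-fold higher with a WT value below the floor, and Itgax nearly level, and Cybb held none of the words in its window. The PU.1 word was found in 1 of the 8, Ctss, where it spans the start from position -2, and in 3.20% of all windows. Neither TTACGTAA nor CACGTG was in any of the 8 windows, against 0.119% and 7.15% of all windows. A match is a run of letters and not evidence of a bound factor, and the lack of one says nothing of the factor.

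All 9 members had higher values in the HLF-deficient tumour than in the WT tumour, but by very unequal amounts; 58.2% of all genes compared had higher values as deposited, and 71.3% with the arrays centred. In measured values 3 of the 9, Cybb, Gpnmb and Cd68, passed the 2-fold rule upwards and 0 passed it downwards, although Gpnmb, with a WT value under the floor, can be called at least 1.63-fold higher and no more. By the same rule 1.5% of all genes compared were higher by that much and 0.364% were lower. At 1.5-fold, Ctss joined them, with 6.37% of all genes higher and 3.11% lower. The median difference of the 9 was 0.57, beside 0.07 over all genes compared, and the members' own values ran from 0.04 to 2.21. Nothing is read from these shares, because the members were chosen with the same contrast known.

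**Figure D1:**
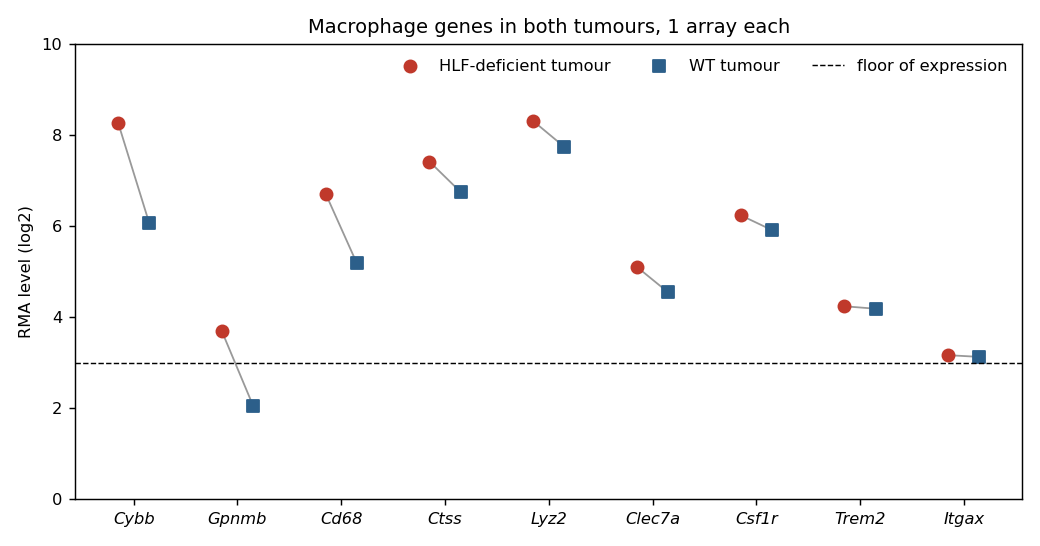
RMA level (log2) of the 9 macrophage genes in the HLF-deficient tumour (circles) and the WT tumour (squares), 1 array each, ordered by the difference; the dashed line is the floor of expression at 2.98. Cybb, Gpnmb and Cd68 differ most, the WT value of Gpnmb lies below the floor, and the symbols of Trem2 and Itgax lie side by side.

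Among the surface receptors, differences were small. Csf1r, the receptor tyrosine kinase through which CSF1 and IL-34 keep macrophages alive, had a level of 6.23 in the HLF-deficient tumour and 5.91 in the WT tumour, a difference of 0.32, and 0.12 after quantile normalization. Clec7a encodes Dectin-1, a lectin that recognises fungal beta-glucans. Its level was 5.10 in the HLF-deficient tumour against 4.54 in the WT tumour, 1.47-fold higher. Trem2, a lipid-sensing receptor of phagocytes, was at 4.23 in the HLF-deficient tumour and 4.18 in the WT tumour, so that the values were almost the same. Itgax encodes CD11c, an integrin chain of recruited macrophages and dendritic cells. It lay at 3.16 in the HLF-deficient tumour and 3.12 in the WT tumour, barely above the floor of 2.98, where RMA compresses differences.

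The oxidase and lysosomal members included the largest differences, but not as a group: Clec7a exceeded Ctss and Lyz2 after quantile or loess normalization. Cybb encodes the catalytic, electron-transferring chain of the phagocyte NADPH oxidase, which makes superoxide in the phagosome. It had a level of 8.26 in the HLF-deficient tumour and 6.06 in the WT tumour, 4.61-fold higher and 17th among the 14575 genes by size of increase. Cd68, a heavily glycosylated membrane protein of lysosomes and endosomes used as a stain for macrophages, was at 6.71 in the HLF-deficient tumour and 5.18 in the WT tumour, 2.88-fold higher. Ctss encodes cathepsin S, the cysteine protease that trims the invariant chain of MHC class II. Its level was 7.42 in the HLF-deficient tumour against 6.75 in the WT tumour, 1.59-fold higher. Lyz2 encodes lysozyme M, which cleaves bacterial cell walls. It was at 8.31 in the HLF-deficient tumour and 7.74 in the WT tumour, 1.48-fold higher. Its near copy Lyz1, which is similar in sequence so that a probe set may read both, was at 4.74 in the HLF-deficient tumour and 4.16 in the WT tumour, with a difference of 0.58 beside 0.57 for Lyz2.

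Gpnmb, a glycoprotein of the endolysosomal membrane induced in lipid-loaded macrophages, was measured above the floor only in the HLF-deficient tumour. Its level was 3.68 there and 2.05 in the WT tumour, where it counts as not above the floor. It was therefore at least 1.63-fold higher; the measured difference, which happens to be 1.63 on the log2 scale, is 0.70 when the WT value is set to the floor. The call of Gpnmb beyond 2-fold thus rests on a value at background, and 2 of the 9 members, Cybb and Cd68, were beyond 2-fold with both values above the floor.

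**Figure D2:**
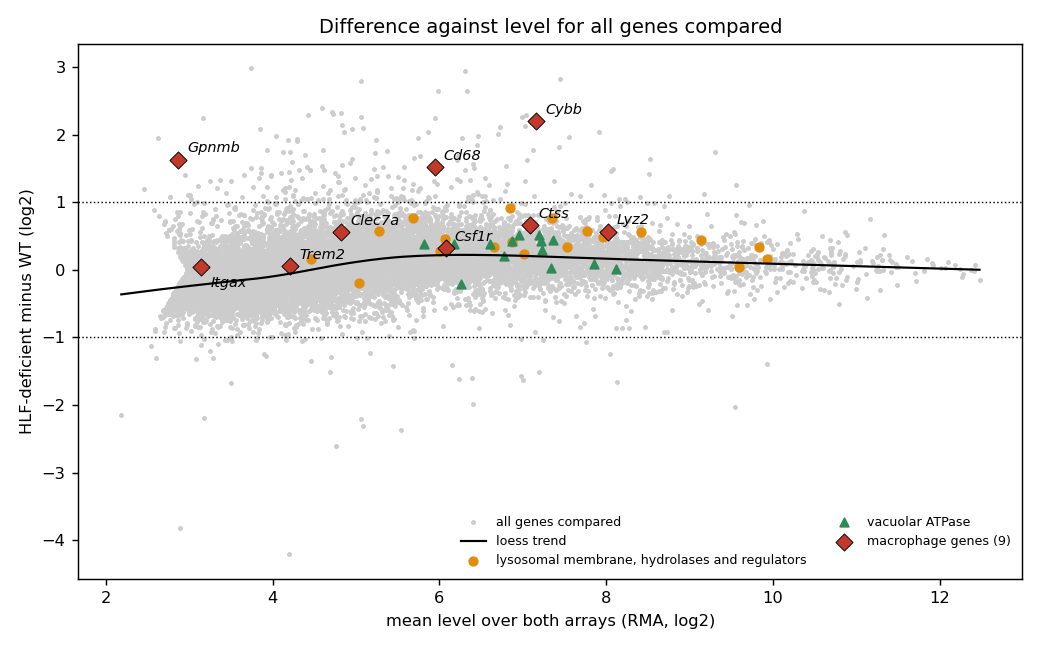
Difference (HLF-deficient minus WT, log2) against the mean level over both arrays (RMA, log2) for the 14575 genes compared (grey), with their loess trend, the 9 macrophage genes (diamonds), lysosomal membrane, hydrolase and regulator genes (circles) and vacuolar ATPase genes (triangles); dotted lines mark 2-fold. Cybb and Cd68 lie far above the trend, while most lysosomal genes lie moderately above it.

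The differences followed the general level of a gene to some degree. In 6 groups of genes of rising mean level, the median difference was -0.20 in the dimmest, which held Gpnmb and Itgax, -0.12 in the next, which held Trem2, 0.05 in the third, which held Clec7a, 0.24 in the second brightest, which held Cd68 and Csf1r, and 0.16 in the brightest, which held Cybb, Lyz2 and Ctss. The trend thus rose with level and then declined. Removal of this trend by loess left differences of 2.04 for Cybb, 1.80 for Gpnmb, 1.37 for Cd68, 0.50 for Ctss, 0.52 for Clec7a and 0.43 for Lyz2. It brought Csf1r to 0.16, Itgax to 0.20 and Trem2 to 0.12. The 9 members kept a positive sign under each of the 4 scalings, and the same 3 passed 2-fold in measured values. The smallest differences, of Trem2, Itgax and Csf1r, were of the size by which the scalings themselves moved values.

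**Figure D3:**
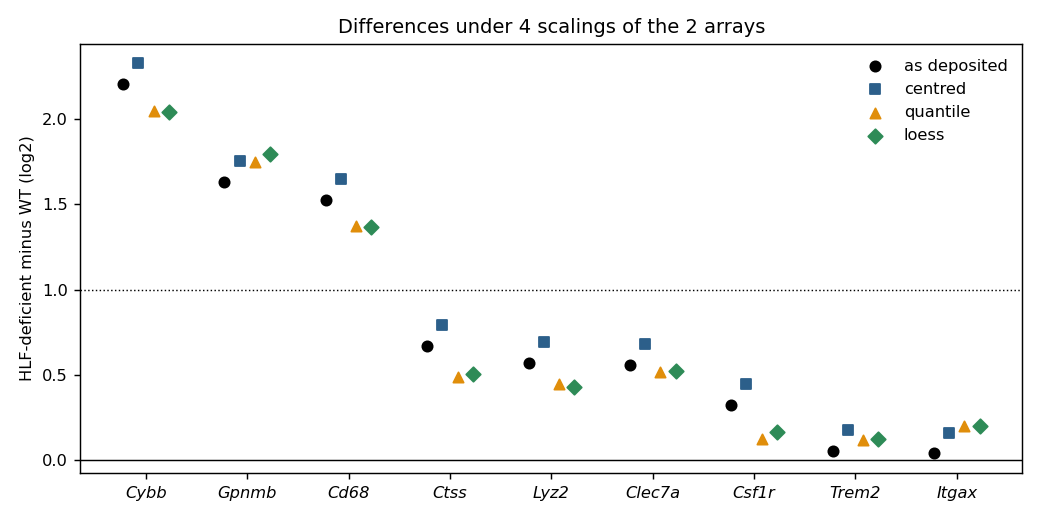
Difference (HLF-deficient minus WT, log2) of each of the 9 macrophage genes with the arrays as deposited, centred on their medians, quantile normalized or with the loess trend removed; the dotted line marks 2-fold. The measured values of Cybb, Gpnmb (WT below the floor) and Cd68 stay above it under each scaling, and Csf1r, Trem2 and Itgax stay between 0.04 and 0.45.

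Lists of genes of 12 pathways or families, chosen by function but with earlier results of the same arrays known, gave the surroundings of the members. Together they held 145 genes other than the members, of which 121 were compared. By the 2-fold rule 7 of these, or 5.79%, were higher and 0 were lower, beside 1.5% and 0.364% of all genes compared. The 7 were Mmp12, Cd14, Lgals3, Ch25h, C3ar1, Cd36 and Ctsc. After quantile or loess normalization Cd36 and Ctsc lay just inside 2-fold, at 0.95 and 0.98 for Cd36 and at 0.98 under both for Ctsc. As for the members, nothing is read from these shares, because the lists were chosen with earlier results known. A short list with 0 genes beyond 2-fold also lies near the share over all genes.

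**Figure D4:**
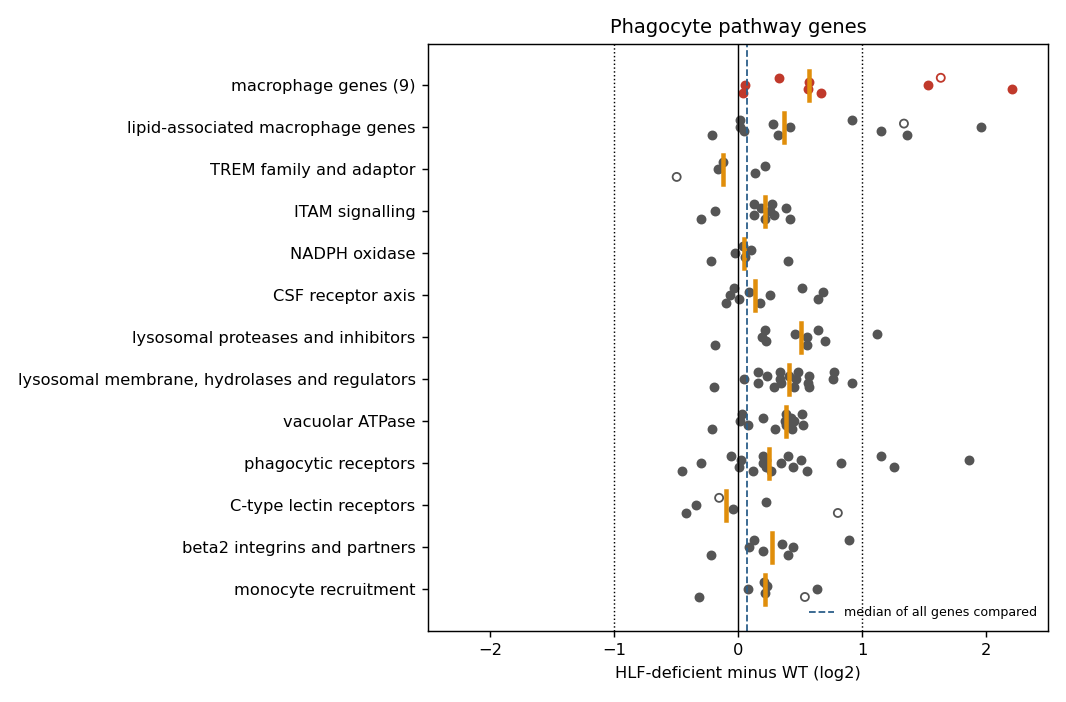
Differences (HLF-deficient minus WT, log2) of the 9 macrophage genes and of the genes of 12 phagocyte pathway lists; filled points were above the floor on both arrays, open points on only 1, short bars are list medians, dotted lines mark 2-fold and the dashed line the median of all genes compared. The lysosomal and vacuolar ATPase lists lie mostly right of that median, with few genes beyond 2-fold.

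The partners of Cybb did not share its difference. Of 6 other NADPH oxidase genes compared, 0 were beyond 2-fold, and their median was 0.04, or between -0.00 and 0.17 over the 4 scalings. Cyba, the smaller membrane chain that pairs with the Cybb product, was at 5.43 in the HLF-deficient tumour and 5.45 in the WT tumour. Ncf1, a cytosolic organiser of the complex, was at 4.49 in the HLF-deficient tumour and 4.71 in the WT tumour, a difference of -0.22. Ncf4 differed by 0.05, the chaperone Cybc1 by 0.04, the small GTPase Rac2 by 0.10 and Rac1, which all cells express, by 0.40. The difference of Cybb, 2.21, was thus unlike that of every partner measured.

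Genes of the lipid-associated macrophage state were split. Of 12 compared, 4 were higher by 2-fold and 0 lower, and the median was 0.37. Over the scalings the median ran from 0.25 to 0.49, and 8 to 11 of the 12 were positive. Spp1, also on this list, had no probe set naming it alone and was not compared. Mmp12, a macrophage elastase, had a level of 7.25 in the HLF-deficient tumour and 5.29 in the WT tumour, a difference of 1.96. Lgals3, a secreted galectin, was at 7.22 in the HLF-deficient tumour against 5.86 in the WT tumour, a difference of 1.36. Cd36, a fatty acid and scavenger receptor that endothelial cells and hepatocytes also make, differed by 1.15, and Cd63, a tetraspanin of late endosomes, by 0.92. Ch25h, a cholesterol hydroxylase, was below the floor in the WT tumour and was at least 2.08-fold higher. Against these, Apoe and Fabp5, a fatty acid carrier, each differed by 0.01, the lysosomal lipase Lipa by 0.05 and Atp6v0d2, a proton pump subunit, by -0.21. Hepatocytes also express Apoe, Plin2 and Lipa, so these values are not of macrophages alone.

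The relatives of Trem2 and their adaptors had small differences of either sign. Tyrobp, the signalling adaptor that Trem2 needs at the cell surface, was at 5.28 in the HLF-deficient tumour and 5.06 in the WT tumour, a difference of 0.22. Treml2 differed by 0.14, Treml4 by -0.12 and Treml1 by -0.17, while Trem1 and Trem3 were below the floor on both arrays. Hcst, another adaptor, was under the floor in the HLF-deficient tumour, at 2.87 against 3.37 in the WT tumour, and at least 1.31-fold lower. The median of this family was -0.12, or between -0.13 and -0.00 over the scalings.

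Genes downstream of Clec7a and other receptors with ITAM motifs had small differences. None of the 11 compared was beyond 2-fold, the median was 0.22, and the range over scalings was 0.19 to 0.34. Malt1, which carries the signal to NF-kB, differed by 0.42 and Fcer1g, the adaptor of Fc receptors, by 0.38. The kinase Syk differed by 0.13, while Card9, the adaptor next after Syk for Dectin-1, had -0.30 and the phospholipase Plcg2 -0.19. Among other C-type lectin receptors, 6 of 11 were compared and 0 were beyond 2-fold. Clec4n, which encodes Dectin-2, was at 3.55 in the HLF-deficient tumour and below the floor in the WT tumour, at least 1.49-fold higher. Clec1a differed by 0.22, while Clec2d differed by -0.43 and Clec1b by -0.34. The median of the lectins was -0.10 as deposited and turned to 0.02 under the other scalings.

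The ligands of Csf1r were nearly level. Csf1 was at 4.68 in the HLF-deficient tumour and 4.71 in the WT tumour, and Il34 was at 3.65 in the HLF-deficient tumour against 3.75 in the WT tumour. Csf3r, the receptor for the neutrophil factor G-CSF, differed by -0.06. Cebpb, an inflammatory bZIP factor of myeloid cells and hepatocytes, differed by 0.69. Spi1, which encodes PU.1, differed by 0.64, with 5.09 in the HLF-deficient tumour and 4.45 in the WT tumour. The median of the 10 genes compared was 0.13, with 0 beyond 2-fold. For Itgax, the common beta chain Itgb2 differed by 0.40, the sister chain Itgam by 0.44 and Itgad by -0.22. Icam1, a ligand of these integrins on endothelium and hepatocytes, was at 7.05 in the HLF-deficient tumour and 6.16 in the WT tumour, a difference of 0.89, or 1.01 with the arrays centred.

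Most other lysosomal genes also had positive differences, nearly all of them under 2-fold. Of all genes compared, 58.2% were positive as deposited, 71.3% with the arrays centred and 53.6% after quantile normalization. Most of these lysosomal genes were bright, and the brighter groups of all genes had positive medians too, of 0.19, 0.24 and 0.16. What in the lysosomal values goes with level alone was not tested. Of 10 proteases and inhibitors compared, 9 had positive values under each scaling, with a median of 0.50 (0.38 to 0.63 over the scalings). Ctsc, cathepsin C, which activates the serine proteases of granules, was at 8.53 in the HLF-deficient tumour and 7.42 in the WT tumour, a difference of 1.12. Ctsa differed by 0.70 and Ctsb by 0.65, while Ctsl, a broad protease also high in hepatocytes, had -0.19. Of 19 membrane proteins, hydrolases and regulators, 18 were positive as deposited and 17 after quantile or loess normalization. Their median was 0.41, or 0.26 to 0.53 over the scalings, and 0 were beyond 2-fold as deposited, while Cd63 passed it at 1.04 with the arrays centred. Gaa, the acid glucosidase, differed by 0.77 and Laptm5, a leukocyte lysosomal protein, by 0.76. Tfeb, a transcription factor of lysosomal genes, had the lowest value, -0.19, and its relatives Tfe3 and Mitf differed by 0.29 and 0.16.

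Subunits of the vacuolar ATPase, the pump that acidifies lysosomes, had a median of 0.38 over 14 genes with 0 beyond 2-fold. Positive values were found for 13 of them as deposited and 10 after quantile or loess normalization, beside 58.2% and, at the lowest, 53.6% of all genes compared. Atp6v1b2 and Atp6v1a both differed by 0.52. Hexa and Glb1, hydrolases of gangliosides, and Grn, the lysosomal protein progranulin, were the pathway genes closest to the median of the 9 members, at 0.57, 0.57 and 0.56. This closeness is of 1 difference between 2 arrays, over 116 candidate genes, and is not a correlation.

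Phagocytic receptors ranged widely. Of 20 compared, 3 were higher by 2-fold and 0 lower, and the median was 0.25. Cd14, the endotoxin co-receptor of myeloid cells and inflamed hepatocytes, was at 7.38 in the HLF-deficient tumour and 5.53 in the WT tumour, a difference of 1.86. C3ar1, the receptor of complement fragment C3a, was at 5.74 in the HLF-deficient tumour against 4.48 in the WT tumour, a difference of 1.26. The activating Fc receptors Fcgr4 and Fcgr3 differed by 0.82 and 0.51, whereas Fcgr2b, the inhibitory one and a gene of sinusoidal endothelium, had -0.45. Mertk and Axl, receptors for dying cells, differed by 0.20 and 0.27, and their relative Tyro3 by -0.30. The mannose receptor Mrc1 was nearly level at 0.02.

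Some monocyte genes were below the floor. Ccr2, the chemokine receptor that brings monocytes out of the marrow, was below the floor on both arrays, as were Chil3, Ifitm6 and Ccl12. Of 7 recruitment genes compared, 0 were beyond 2-fold and 6 were positive under each scaling, where 53.6% to 71.3% of all genes compared were. Their median was 0.21 as deposited, and 0.21 to 0.34 over the scalings. Plac8 differed by 0.63, the chemokine Ccl2 by 0.23 and S100a4 by -0.32, while F13a1 was below the floor in the WT tumour and at least 1.23-fold higher. Ly6c2, a surface marker of inflammatory monocytes, was not analysed here.

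Markers of whole cell types were set beside the members. Of 10 general macrophage markers compared, 9 were positive, where 58.2% of all genes compared were, with a median of 0.35 and a summed linear level of 545 in the HLF-deficient tumour and 341 in the WT tumour. Cd14 was the only one beyond 2-fold as deposited and is a gene that inflamed hepatocytes also make. Without it, the sums were 379 in the HLF-deficient tumour and 295 in the WT tumour. Leaving it out was a choice made after seeing the values. Adgre1, which encodes F4/80, differed by 0.57, Ms4a7 was at least 1.26-fold higher with a WT value below the floor, and its measured difference of 0.86 passed 2-fold after quantile or loess normalization. The complement genes C1qa, C1qb and C1qc differed by 0.26, 0.45 and 0.48. Aif1 and Lst1 were nearly level at 0.04 and -0.09. General leukocyte markers had a median of 0.76 over 7 genes, with summed levels of 445 in the HLF-deficient tumour and 270 in the WT tumour. Cd53, a leukocyte tetraspanin, differed by 1.02 (0.87 after quantile normalization) and Ptprc, which encodes CD45, by 0.86, while Coro1a had -0.08. Whether the members' differences go with the number of macrophages or with RNA per cell was not tested.

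Kupffer cell markers were divided evenly, with 6 of 12 positive and a median of -0.02 (-0.04 to 0.10 over the scalings). Their summed level was 823 in the HLF-deficient tumour and 761 in the WT tumour, but 551 in the HLF-deficient tumour and 593 in the WT tumour without C6, a complement gene that hepatocytes also make (a choice made after seeing the values). Clec4f and Vsig4, genes typical of resident Kupffer cells, differed by -0.37 and -0.36. Spic, a factor of iron-recycling macrophages, had 0.73 and C6 had 0.69. The phagocytic receptors Marco and Timd4 are on this list too, and they differed by 0.12 and 0.01.

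**Figure D5:**
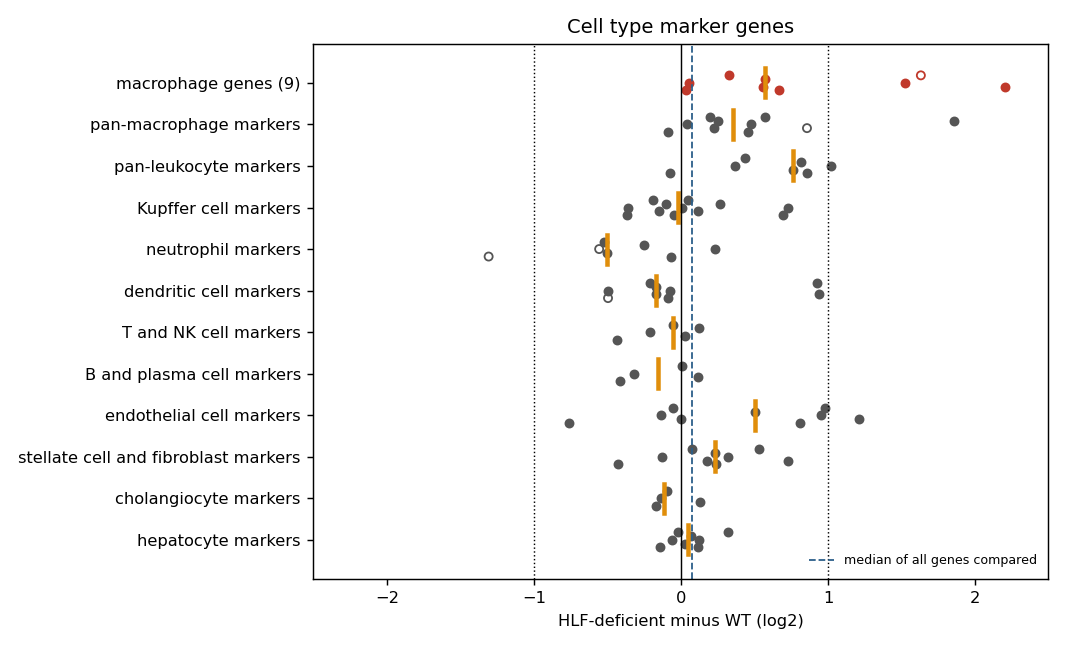
Differences (HLF-deficient minus WT, log2) of the 9 macrophage genes and of markers of 11 cell types; filled points were above the floor on both arrays, open points on only 1, short bars are medians, dotted lines mark 2-fold and the dashed line the median of all genes compared. General macrophage and leukocyte markers lie mostly right of 0, and neutrophil markers mostly left of it.

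Other blood cells that express some of the members, such as Cybb and Lyz2 in neutrophils and Itgax in dendritic cells, were read through their own markers. Of 7 neutrophil markers compared, 1 was positive and the median was -0.50 (-0.50 to -0.36 over the scalings), or -0.28 with values set to the floor. Their summed level was 76.8 in the HLF-deficient tumour and 102 in the WT tumour, and Ly6g, Cxcr2 and Mmp8 were below the floor on both arrays. Retnlg had the one positive value, 0.23, and Mpo, which encodes myeloperoxidase, was at least 1.39-fold lower. S100a9, a calcium-binding protein of neutrophils, was at 4.60 in the HLF-deficient tumour and 5.12 in the WT tumour. Ngp, a granule protein, was at 1.95 in the HLF-deficient tumour, under the floor, and 3.26 in the WT tumour, which is at least 1.21-fold lower. Dendritic cell markers had a median of -0.17 with 2 of 9 positive as deposited, and of -0.05 to -0.02 with 4 of 9 positive under the other 3 scalings. Their summed level was 444 in the HLF-deficient tumour and 289 in the WT tumour. The 2 positive as deposited were Cd74, the invariant chain that Ctss trims, at 0.94, and the class II gene H2-Ab1 at 0.93. Both passed 2-fold with the arrays centred. H2-Eb1, the other class II gene of this list, went the other way, at -0.17 as deposited and between -0.05 and -0.02 under the other scalings. Macrophages express Cd74 and H2-Ab1 as well, while Xcr1 and Clec9a, markers of cross-presenting dendritic cells, were below the floor on both arrays. Ccr7 differed by -0.50 and Cd209a was at least 1.41-fold lower.

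No lymphocyte marker compared was beyond 2-fold. Over all genes compared, 1.5% were higher by that much and 0.364% lower, so little can be read from this in short lists. Of the 9 T and NK cell markers, 5 were compared, with a median of -0.05 as deposited and 0.07 to 0.10 under the other 3 scalings, and summed levels of 62.8 in the HLF-deficient tumour and 70.9 in the WT tumour, and Cd3d, Ncr1 and Klrb1c were below the floor on both arrays. Cd4 and Nkg7 had 0.12 and 0.03, and Cd3e and Cd8a had -0.43 and -0.21. Of the 6 B and plasma cell markers, 4 were compared, with a median of -0.15 and summed levels of 90.3 in the HLF-deficient tumour and 93.9 in the WT tumour, and Cd79a and Ms4a1 were below the floor on both arrays. Jchain and Mzb1 had 0.12 and 0.01, and Pax5 and Cd79b had -0.41 and -0.32. Endothelial markers had a median of 0.51, with Lyve1, a receptor for hyaluronan that some macrophages also make, at 1.21, Emcn at 0.98, Clec4g at -0.76 and Tek at -0.13. Stellate cell markers had a median of 0.23 (0.04 to 0.35 over the scalings), with Pdgfrb at 0.73, Col3a1 at 0.53, Hand2 at -0.43 and Lrat at -0.13. Cholangiocyte markers had one of -0.12 (-0.12 to 0.01 over the scalings), with Epcam at 0.13, Krt19 at -0.17 and Sox9 at -0.13. Over the scalings the B and plasma cell median ran from -0.15 to -0.03 and the endothelial one from 0.31 to 0.63. The part of these cells in the members' values was not tested.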

How the data were processed

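Expression was measured in 1 HLF-deficient and 1 WT mouse tumour. The authors deposited log2 values from RMA, run in Affymetrix Expression Console, per the submitters' processing notes; no version is given, and the scale was read from the values (0.37 to 12.7 on the HLF-deficient array, 0.25 to 12.7 on the WT array). RMA summarises probes after background correction and normalization and compresses differences near background. Probe sets naming exactly 1 gene (21789 of 35556) were used, and for a gene with several the one of highest mean over both arrays. Symbols were looked up by identifier in RefSeq (GRCm38.p6), where 21698 of the 21789 were found. No test was possible with 1 array per genotype, and precision is limited by the small number of arrays; genes were called at 2-fold. As a guide to the spread between probe sets of 1 gene, the SD of a probe set's difference, from pairs of 696 genes, was 0.23. Both probe sets of a pair were read on the same arrays and lay above the floor. Error between arrays, and error near the floor, is therefore not in this value. The members and lists were chosen with earlier results of these data known. Genes named are the members, Hlf, list genes beyond 2-fold, up to 2 of the most extreme values of each list in each direction, and the 3 nearest to the members' median; any others were chosen with their values in view. The settings tried were centring, quantile and loess (span 0.4) normalization, averaging of probe sets per gene, 2 other floors, values set to the floor, and rules of 1.5-fold and 4-fold. The procedure was tested on simulated data. Python 3.11.15, pandas and statsmodels were used.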

Additional observations from a re-analysis of the deposited data

How the results depend on the processing

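The 9 members' signs and the 3 genes past 2-fold in measured values were the same as deposited and under centring, quantile and loess normalization, the mean of probe sets and the floor at percentile 90. With the floor at percentile 99, Gpnmb was not compared and 2 members were beyond 2-fold. With values below the floor set to it, Gpnmb was at 0.70 and 2 members, Cybb and Cd68, were beyond 2-fold. At 4-fold, 1 member (Cybb) and 0 pathway genes were higher, and at 1.5-fold 18 pathway genes were. Over all genes, 929 were higher and 454 lower at 1.5-fold, and 27 higher and 9 lower at 4-fold; centring the arrays gave 32 lower genes in place of 53. With the same stricter floor, fewer genes were compared and the medians of the C-type lectin and of the T and NK cell lists were -0.34 and -0.32. With 1 array per genotype, no difference can be set against a spread between mice.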
